A study of Mus musculus with 12 samples.

Results

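The genes described here are the 4 myogenic regulatory factors, Myod1, Myog, Myf5 and Myf6, and the 4 MEF2 factors, Mef2a, Mef2b, Mef2c and Mef2d. They were found on the arrays through the RefSeq accession given for each probe, which led to 9 of 41174 probes: 1 for each gene and 2 for Mef2a. The RNA came from C3H/10T1/2 cells, fibroblasts of a mouse embryo line that turns towards skeletal muscle when it is made to express MyoD. There were 4 groups of 3 arrays: the Six4 hairpin (shSix4) with MyoD, the control hairpin (shLuc) with MyoD, shSix4 with the empty retroviral vector pBABE, and shLuc with empty pBABE. All 4 groups carried a hairpin and a retrovirus, were infected 24 h before the switch to medium with 2% horse serum, and were collected after 24 h in that medium. MyoD came from a retrovirus rather than from the Myod1 locus, and the sources used here do not say whether a hairpin line was a clone or a pool. Nothing in the labels says that replicates came from separate cultures, and the spread behind the p-values may therefore be technical.

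The myogenic regulatory factors are basic helix-loop-helix proteins. They pair with the widely expressed E proteins and bind E-boxes in the control regions of muscle genes. Myod1 and Myf5 commit cells to the muscle fate, Myog drives terminal differentiation, and Myf6, also called MRF4, acts during and after differentiation. The MEF2 factors are MADS-box proteins that bind A/T-rich sites and work together with the myogenic factors at many muscle promoters. Six4 is a homeobox factor that binds MEF3 sites in promoters such as that of Myog.

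Levels are log2 of the processed Cy3 signal minus the array's 75th percentile of it, so 0 is the level of that percentile on its array. Levels of different probes cannot be set against each other. Between 22318 and 27448 probes per array were well above background, and no spot was saturated. The replicate number was the slide: each of the 3 slides held 1 array of every group. To be tested, a probe had to exceed background clearly on each of the 3 arrays in 1 group or more, as 24000 probes did, 6 of the 9 probes of these genes among them. Those 6 were the probes of Myod1, Myog, Mef2c and Mef2d and both probes of Mef2a. P-values are from limma with Benjamini-Hochberg adjustment over the 24000 probes, with a threshold of 0.05. Errors of changes are its SE, from 3 arrays a group except where stated. This main fit has no term for the slide, although arrays of the same slide deviated together, so it leaves their pairing out. A probe that did not pass it may pass with the slide as a block, which is given beside it where it changed a call. Markers of fibroblasts were above background in every group (9 or 10 of 10), and none of the 3 endothelial markers was above background on any array.

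Six4, the hairpin's target, was at -2.97, -2.86 and -1.47 in shSix4 cells with MyoD, against -1.38, -1.58 and -0.78 in shLuc cells with MyoD. With empty vector it was at -4.03, -2.94 and -2.76 in shSix4 cells and at -2.55, -2.82 and -1.58 in shLuc cells. It was lower with the Six4 hairpin on every slide with either vector, but the difference passed the threshold in neither (-1.18 ± 0.49, SE, adjusted p = 0.672 with MyoD, and -0.92 ± 0.49, adjusted p = 1.00 with empty vector). With the slide as a block the adjusted p for Six4 was 0.0558 with MyoD and 0.214 with empty vector. In these samples of whole cultures, less RNA per cell and fewer cells with the RNA cannot be told apart.

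**Figure D1:**
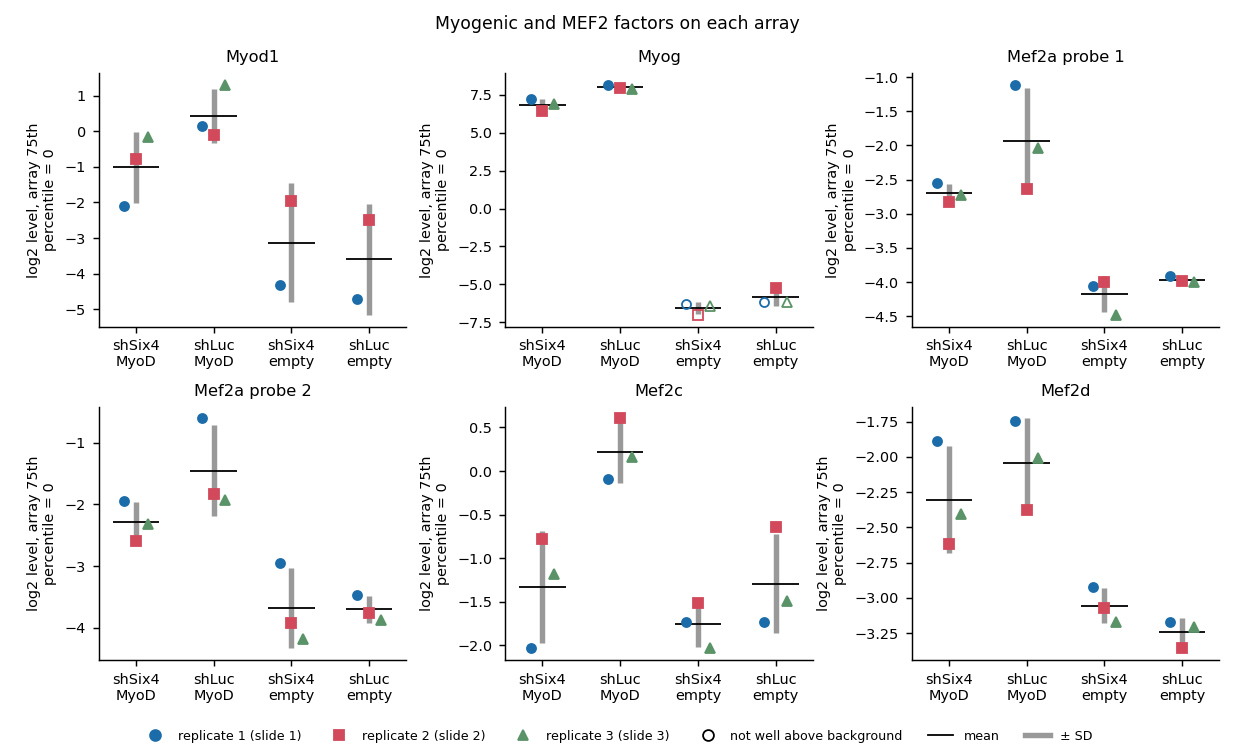
Levels of the 6 tested probes on each of the 12 arrays, as log2 signal relative to the array's 75th percentile. Points are arrays, shaped and coloured by replicate (slide) and open where the probe was not well above background, with the group mean as a line and ± SD as a grey bar. Myog was near 7 to 8 in both MyoD groups and at or near background without MyoD, while Mef2c stood apart only in shLuc cells with MyoD.

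Myog, which encodes myogenin, had the largest change of the 6 tested probes with MyoD in both lines. Its level was 7.22, 6.45 and 6.90 in shSix4 cells with MyoD and 8.18, 7.99 and 7.88 in shLuc cells with MyoD. Without MyoD it read -6.29, -7.02 and -6.42 in shSix4 cells and -6.19, -5.21 and -6.18 in shLuc cells. Both MyoD groups lay far above both empty-vector groups. In shSix4 cells none of the 3 empty-vector arrays had Myog well above background, so its rise is a lower bound, at least 4635-fold with MyoD (adjusted p = 5.08e-09). The bound sets the mean with MyoD against, per empty-vector array, the higher of Myog's own signal and the lowest signal well above background. That floor is not a strict detection limit. On shSix4 empty-vector replicate 3 it was -5.60, and Myf6 read -5.38 there without being above background. Folds given further on as "at least" rest on the same kind of floor. In shLuc cells, where 1 of 3 empty-vector arrays was above background, Myog rose by 13.87 ± 0.32 on the log2 scale (adjusted p = 3.59e-09). With normexp background correction, run with an offset of 50, the changes were 9.86 in shSix4 cells and 10.04 in shLuc cells. The first of them is below the bound, so the bound holds only for the main processing.

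The Myog promoter is shown because it holds, within a short stretch, letter matches to the general E-box, to MEF3 and to a MEF2 core. Proteins of the MyoD family, Six4 and the MEF2 factors bind motifs of these 3 kinds. The bases lie on chromosome 1 (chr1:134289754-134290003, plus strand, GRCm38.p6) and are the 250 bases before the gene's start in RefSeq, so all lie upstream of the transcript. Capitals mark the matches.

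Myog promoter: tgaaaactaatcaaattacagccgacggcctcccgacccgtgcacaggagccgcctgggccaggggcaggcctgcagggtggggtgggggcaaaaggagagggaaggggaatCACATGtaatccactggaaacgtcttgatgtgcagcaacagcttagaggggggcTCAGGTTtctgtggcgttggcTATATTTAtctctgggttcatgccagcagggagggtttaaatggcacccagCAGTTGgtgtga

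From left to right the capitals are an E-box, a MEF3 match, a MEF2 core and a second E-box. The E-boxes (CANNTG) lie at -138 to -133 (CACATG) and at -12 to -7 (CAGTTG), counted back from the start. The MEF3 match, TCAGGTT, the letters bound by Six4, lies at -84 to -78. The MEF2 core was searched as TANNNNTA, with any base at N, which is looser than an A/T-rich site. Here it is TATATTTA, of A and T only, and lies at -63 to -56. All motifs were searched on both strands, and in this window no matches overlapped. The RefSeq table held 32851 promoter windows, each with 250 bases before the start and 50 from it on. Of these, 72.3% held an E-box, 4.07% the MEF3 letters and 37.3% the MEF2 core, with any base at N. In the 250 bases before the start alone, as shown for Myog, the shares were 66.2%, 3.49% and 34.4%. The stricter MyoD-type E-box, CAGCTG, was also searched. It lay in 16.3% of the windows, but in none of those found for the genes described here.

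Windows were found for 6 of the 8 genes, Mef2c having 3. The MEF3 letters also occurred in 1 of the 3 Mef2c windows, at -248 to -242 on the other strand, and in no window of Myf5, Mef2a, Mef2b or Mef2d. That Mef2c window also held E-boxes at -234 to -229 (CAAGTG) and -100 to -95 (CATATG), and a MEF2 core at -145 to -138. The same 3 kinds of match as in the Myog promoter thus lay before the start there too. The MEF2 core, with any base at N, occurred in the windows of Myf5 and Mef2a and in all 3 of Mef2c. Only the Mef2a match, TAAAAATA, and that of the Mef2c window with the MEF3 letters, TAATTTTA, were of A and T alone. The Myf5 match was TAGGTTTA, and the other Mef2c matches were TATTACTA, TAACGATA and TACAAGTA. In Mef2a the match spanned the start, from -1 to 7. The Mef2d window held none of the motifs searched. E-boxes numbered 2 in the Mef2b window, 2, 0 and 1 in the 3 Mef2c windows, and 0 in those of Myf5 and Mef2a. These are matches of letters and say nothing of binding.

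Myod1 rose with MyoD in shLuc cells, and its level had an SD of 0.76 to 1.67 within the groups. It was at -2.11, -0.79 and -0.15 in shSix4 cells with MyoD and at 0.14, -0.11 and 1.31 in shLuc cells with MyoD. With empty vector the usable arrays read -4.31 and -1.95 in shSix4 cells and -4.71 and -2.49 in shLuc cells, and on slide 3 every spot of the probe carried an outlier mark in both of these groups, so the fit used 2 arrays there. The probe was above background on all 12 arrays. In shLuc cells all 3 MyoD arrays lay above the 2 usable empty-vector arrays. No share of all probes was computed for such a comparison of 3 with 2 arrays. In shSix4 cells with MyoD the lowest value, -2.11, lay below the highest empty-vector value of -1.95. These 2 values come from different slides, and within slides 1 and 2 Myod1 was higher with MyoD in shSix4 cells, by 2.20 and 1.17. The change with MyoD was 2.12 ± 0.91 in shSix4 cells, which did not pass (adjusted p = 0.594, 95% interval 0.06 to 4.17). In shLuc cells Myod1 rose by 4.04 ± 0.91 (adjusted p = 0.0411). The position of this probe on the transcript was not used here, so RNA from the virus and from the Myod1 locus cannot be told apart.

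The Myod1 probe was printed 10 times on each array, and 45 of its 120 spots carried the scanner software's mark for a non-uniform spot. All 10 spots were marked on slide 3 with empty vector, in shSix4 and in shLuc cells alike. On slide 2, 9 of 10 were marked in shSix4 cells, both with MyoD and with empty vector, so each of these values rests on 1 spot. On slide 3, 6 of 10 were marked in shSix4 cells with MyoD, and 1 of 10 in shLuc cells with MyoD, while the remaining 6 arrays had none. Of the 245 probes with at least 10 spots, Myod1 was the only one with at least 50% of its spots marked on any array, and it was so on 5 arrays. Over all spots of an array the marked share was 0.0392% to 0.528%, and none of the 120 Myog or 120 Myf5 spots had this mark.

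Marked and unmarked Myod1 spots of the same array gave similar signals where both existed. In shSix4 cells with MyoD the mean log2 signal on slide 3 was 9.56 over the 6 marked and 9.53 over the 4 unmarked spots, and on slide 2 it was 8.81 over the 9 marked spots and 8.60 in the unmarked one. In shSix4 cells with empty vector on slide 2 it was 7.77 over the 9 marked spots and 7.70 in the unmarked one. In shLuc cells with MyoD on slide 3 it was 11.08 in the 1 marked spot and 11.18 over the 9 unmarked. Where 1 kind was a single spot, the comparison is weak. The SD over the 10 spots of an array had a median of 0.24 for Myod1 and 0.29 for Myog on the log2 scale. For Myog, arrays near background were the wider ones, up to 0.72. Myod1 arrays of like median signal are closer to compare. In shSix4 cells the SD was 0.25 on marked slide 2 with empty vector (signal 213), against 0.10 on unmarked slide 1 with MyoD (161). It was 0.16 on slide 3 with MyoD (730), against 0.04 and 0.18 on unmarked slides 1 and 2 of shLuc cells with MyoD (736 and 605). Dimmer unmarked arrays reached 0.71.

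**Figure D2:**
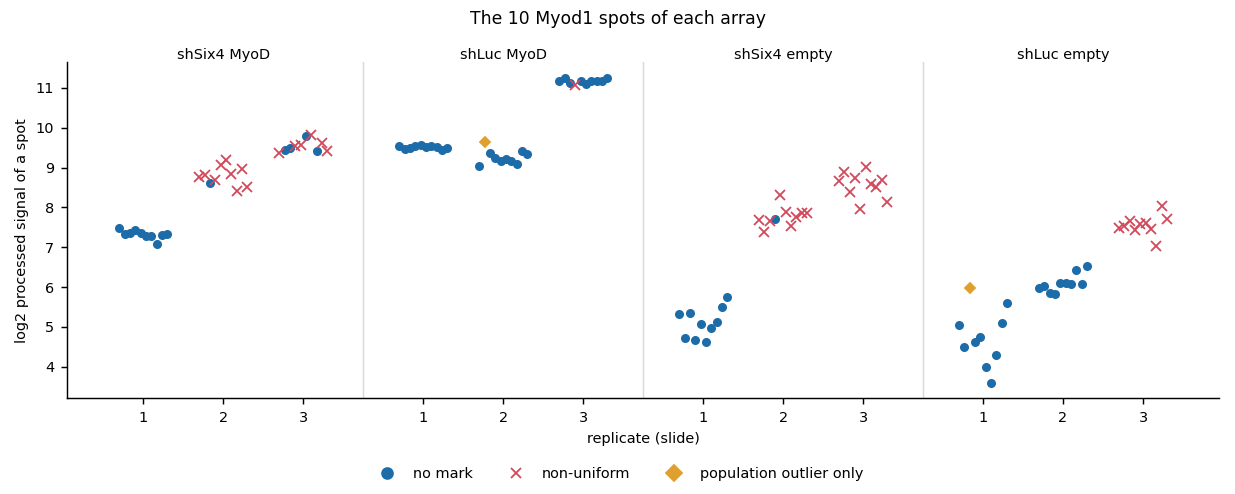
Log2 processed signal, before any scaling between arrays, of the 10 Myod1 spots on each array. Groups run from left to right and replicates (slides) within them, with crosses for spots marked non-uniform and diamonds for spots marked only as population outliers. All spots on slide 3 were marked in both empty-vector groups, and in each group the slide means spanned more than the spots of any 1 array.

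With all marked spots kept, Myod1 on slide 3 read -0.13 in shSix4 cells with MyoD, against -1.20 in shSix4 cells and -2.27 in shLuc cells with empty vector. The change with MyoD was then 1.52 in shSix4 cells (adjusted p = 0.819, range over all alternatives 0.122 to 1.00) and 3.56 in shLuc cells (adjusted p = 0.0435, range 0.00379 to 1.00). Slide means differed more for Myod1 than for the other tested probes. With group means removed and all spots kept, its slide means spanned 2.13 on the log2 scale, a range reached by 1.95% of the 24000 probes, whose median range was 0.59, while those of the other 5 probes spanned 0.26 to 0.84. Slide 1 was scanned on another day than slides 2 and 3, and the part of slide or scan in the Myod1 values was not tested beyond the slide block. The call in shLuc cells ended (adjusted p = 0.0553 to 0.257) on leaving out shLuc MyoD replicate 1, 2 or 3, shSix4 MyoD replicate 2 or 3, or shLuc empty-vector replicate 1, where the change was 2.93.

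Mef2a had 2 probes, both of which rose with MyoD in shLuc cells. With MyoD, probe 1 was at -2.55, -2.83 and -2.72 in shSix4 cells and at -1.11, -2.63 and -2.04 in shLuc cells. With empty vector it was at -4.05, -3.99 and -4.48 in shSix4 cells and at -3.91, -3.99 and -3.99 in shLuc cells. Probe 2 was at -1.94, -2.59 and -2.31 in shSix4 cells and at -0.60, -1.83 and -1.93 in shLuc cells with MyoD, against -2.95, -3.92 and -4.19 in shSix4 cells and -3.46, -3.76 and -3.88 in shLuc cells with empty vector. In each line and for each probe, all MyoD arrays lay above all empty-vector arrays. Probe 1 rose with MyoD in both lines, by 1.47 ± 0.32 in shSix4 cells (adjusted p = 0.0412) and by 2.04 ± 0.32 in shLuc cells (adjusted p = 0.00306). Probe 2 read 1.41 ± 0.40 in shSix4 cells, which did not pass (adjusted p = 0.156), and rose by 2.25 ± 0.40 in shLuc cells (adjusted p = 0.00657). A slide block let probe 2 pass in shSix4 cells too (adjusted p = 0.00442, range over all alternatives 0.00442 to 1.00). The call of probe 1 in shSix4 cells ended on leaving out any 1 of 10 arrays (adjusted p = 0.0666 to 0.191), the exceptions being shLuc MyoD replicates 1 and 2.

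Mef2c, which encodes the MEF2 factor best known from developing heart and skeletal muscle, rose with MyoD in shLuc cells. It read -2.03, -0.78 and -1.18 in shSix4 cells with MyoD and -0.10, 0.61 and 0.16 in shLuc cells with MyoD. With empty vector it read -1.74, -1.51 and -2.03 in shSix4 cells and -1.73, -0.65 and -1.49 in shLuc cells. All 3 shLuc arrays with MyoD lay above the other 9 arrays, whose groups overlapped one another. The change with MyoD was 0.42 ± 0.37 in shSix4 cells, which did not pass (adjusted p = 1.00, 95% interval -0.39 to 1.24), with -0.30, 0.73 and 0.85 on the 3 slides. In shLuc cells Mef2c rose by 1.51 ± 0.37 (adjusted p = 0.0429), with 1.63, 1.25 and 1.65 on the slides. That call held without shLuc empty-vector replicate 2 and without shSix4 MyoD replicate 1 or 2, and ended on leaving out any of the other 9 arrays (adjusted p = 0.0558 to 0.163).

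Mef2d, a broadly expressed MEF2 factor, changed least of the tested probes with MyoD in shLuc cells. With MyoD it was at -1.88, -2.62 and -2.41 in shSix4 cells and at -1.74, -2.38 and -2.01 in shLuc cells. With empty vector it was at -2.93, -3.07 and -3.17 in shSix4 cells and at -3.17, -3.36 and -3.20 in shLuc cells. The MyoD arrays lay above the empty-vector arrays of their own line without overlap in both lines. The change was 0.75 ± 0.23 in shSix4 cells, which did not pass (adjusted p = 0.219), and passed with the slide as a block (adjusted p = 0.0213, range over all alternatives 0.0213 to 1.00). In shLuc cells Mef2d rose by 1.20 ± 0.23 (adjusted p = 0.0116). This call ended without shLuc empty-vector replicate 2 or shLuc MyoD replicate 1 or 3 (adjusted p = 0.0507 to 0.0606).

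Counted together, 2 of the 6 tested probes rose with MyoD in shSix4 cells, where 2.18% of all tested probes rose. In shLuc cells 6 of 6 rose, where 3.75% of all tested probes rose. Myog passed the filter only through the MyoD groups, so its part in these counts is not independent of the filter. Each other probe of the 6 was above background on every array. With the slide as a block the count in shSix4 cells was 4 of 6, against 4.2% of all probes. Of the 5 probes measured on all arrays, 4 had MyoD arrays that all lay above the empty-vector arrays in shSix4 cells (6.66% of all tested probes) and 5 did in shLuc cells (9.89%). With normexp background correction Myog was the only one of the 6 called, in each line. That correction added an offset of 50 to the signals, which lowers log2 changes of dim probes. The part of the offset in these lost calls was not tested. Markers of adipocytes, a list of 6 genes, had a lower summed linear level with MyoD, without overlap in either line: 3.83 to 5.39 in shSix4 cells and 3.13 to 3.85 in shLuc cells with MyoD, against 6.13 to 8.05 in shSix4 cells and 5.98 to 7.35 in shLuc cells with empty vector. In each group 2 of the 6 were above background on all 3 arrays, and Cfd and Lep were above it on none. The part of these markers in the changes with MyoD was not tested.

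**Figure D3:**
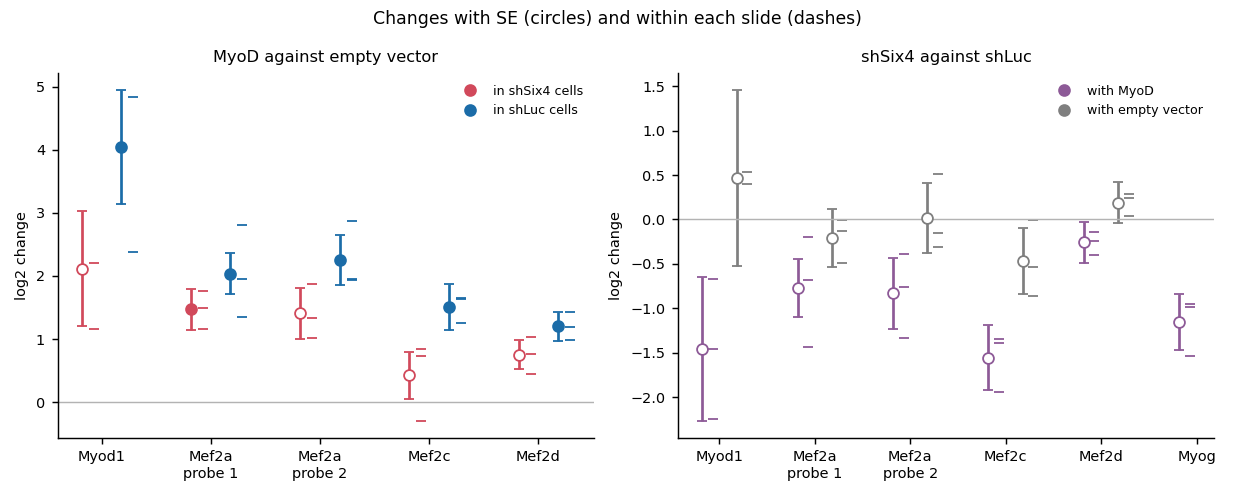
Log2 changes with limma SE (circles, filled where the adjusted p was under 0.05) and the differences within each slide (dashes). Left, MyoD against empty vector in shSix4 and shLuc cells, without Myog, whose changes lie off this scale. Right, shSix4 against shLuc cells with MyoD and with empty vector, where no circle is filled and the changes with MyoD lie below 0 (Myog is shown with MyoD only, being near or below background without it).

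Among cells with MyoD, none of the 6 probes passed the threshold between shSix4 and shLuc cells (0 of 6, against 0.162% of all tested probes), but all 6 read lower with the Six4 hairpin on each of the 3 slides. Of the 23785 tested probes measured on all 6 arrays, 19.0% were lower on each slide. Mef2c read -1.56 ± 0.37 (adjusted p = 0.181, 95% interval -2.37 to -0.74), with -1.94, -1.39 and -1.34 on the slides. It passed with the slide as a block (adjusted p = 0.0142, range over all alternatives 0.0142 to 1.00), where 2.52% of all tested probes were called and 1.61% were called lower, and it was the only one of the 6 that did. Myog read -1.16 ± 0.32 (adjusted p = 0.269, and 0.0925 with the slide as a block), with -0.95, -1.54 and -0.98 on the slides. The Mef2c and Myog values of the groups did not overlap, and neither did those of Myod1 or of Mef2a probe 2, as was so for 5.78% of all tested probes in the lower direction.

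Myod1 itself read -1.46 ± 0.81 in shSix4 against shLuc cells with MyoD (adjusted p = 0.940, 95% interval -3.30 to 0.38), with -2.24, -0.67 and -1.46 on the slides. Mef2a probes 1 and 2 read -0.77 ± 0.32 (adjusted p = 0.682) and -0.83 ± 0.40 (adjusted p = 0.811). Mef2d read -0.26 ± 0.23 (adjusted p = 1.00, 95% interval -0.77 to 0.25). The lower reading of Myod1 in shSix4 cells stands beside the lower readings of Myog and the MEF2 factors, and whether it has a part in them was not tested. Markers of cardiac muscle, a list of 5 genes, were above background on all 3 arrays for 1 gene in shSix4 cells with MyoD and for 4 in shLuc cells with MyoD, against 1 in shSix4 and 3 in shLuc cells with empty vector. Their summed linear level was 0.161 to 0.321 in shSix4 cells and 0.578 to 1.22 in shLuc cells with MyoD, against 0.127 to 0.169 in shSix4 cells and 0.143 to 0.174 in shLuc cells with empty vector. Tbx5 was above background on no array of 3 of the groups, shSix4 cells with MyoD being the exception. Myh6, a myosin heavy chain on this list, was above background on no empty-vector array of either line, but was so in both MyoD groups. The sums are not split by gene here, so they do not show which markers differed. The part of these markers in the result for Mef2c was not tested.

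With empty vector none of the 6 probes passed between the hairpins (0 of 6, against 0.0167% of all tested probes). Mef2c read -0.47 ± 0.37 (95% interval -1.28 to 0.34), Mef2a probes 1 and 2 read -0.21 ± 0.32 and 0.02 ± 0.40, Mef2d 0.19 ± 0.23 and Myod1 0.47 ± 0.99. Each of these had an adjusted p of 1.00. Mef2d was higher in shSix4 cells on all 3 slides by at most 0.29, and its groups did not overlap, as for 2.97% of all tested probes in that direction. Myog was near or below background in both lines, so its difference has no direction to read.

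The test of whether the MyoD response differed between the lines called none of the 24000 probes, by limma with or without the slide block (434 had an unadjusted p under 0.05). For the 5 probes other than Myog the difference, shSix4 response minus shLuc response, was below 0: -1.93 ± 1.28 for Myod1, -1.09 ± 0.52 for Mef2c, -0.84 ± 0.56 and -0.57 ± 0.46 for Mef2a probes 2 and 1, and -0.45 ± 0.33 for Mef2d. The adjusted p was 1.00 for each, and each 95% interval held 0. For Myog no such difference is given, since its response in shSix4 cells is a lower bound. For Mef2c the interval was -2.24 to 0.06 and the slides gave -1.93, -0.52 and -0.81. A rise of Mef2c that passed in shLuc cells and did not in shSix4 cells was therefore not shown to differ between the lines.

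Myf5, Myf6 and Mef2b stayed at or near background and were not tested. Myf5 lay between -8.56 and -6.92 on all 12 arrays, above background on none, and 2 of its 120 spots were well above background. With MyoD its mean was -7.98 ± 0.84 in shSix4 cells and -7.72 ± 0.14 in shLuc cells, and with empty vector it was -7.45 ± 0.46 in shSix4 cells and -7.86 ± 0.52 in shLuc cells (SD, n = 3 each). Myf6 lay between -7.57 and -5.24 and was above background only in shSix4 cells with MyoD, on replicates 2 and 3, where it read -5.81 and -5.37. Arrays of other groups read about as high without being above background. They read -5.24 in shLuc cells with MyoD (replicate 1), and -5.38 in shSix4 and -5.70 in shLuc cells with empty vector (replicate 3). The level of Myf6 thus did not set that group apart.

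With MyoD, Mef2b read -5.50, -5.75 and -5.15 in shSix4 cells and -5.10, -5.55 and -5.22 in shLuc cells. With empty vector it read -6.42, -6.38 and -5.18 in shSix4 cells and -5.57, -5.52 and -5.21 in shLuc cells. It was above background on 2 of 3 arrays in each MyoD group and on 1 of 3 in each empty-vector group, and all groups overlapped. The lowest level well above background on an array lay between -6.61 and -4.80.

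**Figure D4:**
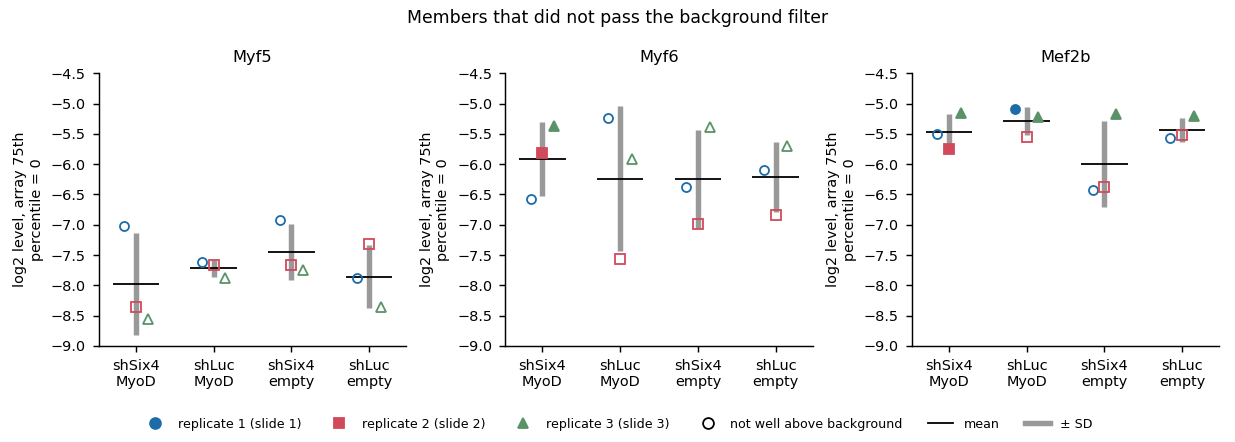
Levels of Myf5, Myf6 and Mef2b on each array, as log2 signal relative to the array's 75th percentile, with open points where the probe was not well above background, lines for group means and grey bars for ± SD. No group stood apart for any of the 3 genes, and every Myf5 point is open.

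Among the lists of partners and regulators of these factors, only the inhibitors and the cofactors had genes that passed the main fit with MyoD. The list of proteins that hold back myogenic bHLH factors had 15 tested genes, of which 2 rose and 0 fell with MyoD in shSix4 cells, and 3 rose and 1 fell in shLuc cells. Over all 12300 named genes, each by its brightest probe, 2.67% rose and 0.0488% fell in shSix4 cells and 4.43% rose and 0.789% fell in shLuc cells. The Notch effector Hey1 rose by 2.15 ± 0.33 in shSix4 cells and by 2.86 ± 0.33 in shLuc cells. Hes1, another Notch effector, rose by 1.29 ± 0.26 in shSix4 cells and by 1.36 ± 0.26 in shLuc cells. In shLuc cells the repressor Bhlhe41 rose by 1.74 ± 0.42 and Snai2, a repressor that competes for E-boxes, fell by 1.18 ± 0.28. The median change of the list was 0.31 in shSix4 cells and 0.46 in shLuc cells, beside -0.05 and -0.12 over all named genes. With the slide as a block, 4 of the 15 were called higher and 0 lower in shSix4 cells, and 5 higher and 3 lower in shLuc cells. The shares over all tested probes were then 4.2% higher and 0.879% lower in shSix4 cells and 8.5% higher and 8.95% lower in shLuc cells.

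None of the 3 E proteins (Tcf3, Tcf4 and Tcf12) passed in either line, nor did any of 11 tested upstream regulators of the MyoD family or of 24 repressors and kinases that act on MEF2 factors. Over all named genes 2.67% rose and 0.0488% fell in shSix4 cells, and 4.43% rose and 0.789% fell in shLuc cells. The slide block added calls, and those of its genes named here were chosen after their values were seen. In shLuc cells it called Tcf12 higher and Tcf3 lower, 2 upstream regulators higher and 1 lower, and, of the repressors and kinases, Akt2 higher and Map2k6, Hdac7, Camk1 and Camk2d lower. In shSix4 cells it called only Map2k6 among these 3 lists, as lower. Among 24 tested cofactors, 2 rose and 0 fell in shSix4 cells, and 5 rose and 0 fell in shLuc cells. With the block 4 were called higher and 0 lower in shSix4 cells, and 7 higher and 3 lower in shLuc cells. Over all tested probes the block called 4.2% higher and 0.879% lower in shSix4 cells, and 8.5% higher and 8.95% lower in shLuc cells. Between shSix4 and shLuc cells with MyoD, 0 of the 24 cofactors were called without the block, and Ncoa1 and Rbm24 were called lower with it. Over all tested probes 0.162% were called without the block and 1.61% were called lower with it. The muscle RNA-binding protein Rbm24 rose at least 84.7-fold in shSix4 cells and by 9.11 ± 0.43 in shLuc cells, where 1 of 3 empty-vector arrays was above background. Vgll2, a TEAD cofactor of skeletal muscle, rose at least 3.46-fold in shSix4 cells and at least 6.83-fold in shLuc cells. Rbm24 and Vgll2 passed the filter only through the MyoD groups. In shLuc cells Tead4, a TEAD factor, rose by 1.99 ± 0.24 and the anchoring protein Akap6 by 1.12 ± 0.23.

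Of 37 tested known targets of MyoD, myogenin and MEF2 factors, 32 rose and 0 fell with MyoD in shSix4 cells, and 32 rose and 0 fell in shLuc cells. Over all named genes 2.67% rose and 0.0488% fell in shSix4 cells, and 4.43% rose and 0.789% fell in shLuc cells. The filter asks for signal over background in only 1 group. Targets silent without MyoD, such as Chrng, Myl1 and Myh3, entered through the MyoD groups, so their rise is not independent of the filter. Of the 37, the block called 33 higher and 1, Klf4, lower in each line. Over all tested probes it called 4.2% higher and 0.879% lower in shSix4 cells, and 8.5% higher and 8.95% lower in shLuc cells. The median change of the 37 was 4.83 in shSix4 cells, or 4.33 with 11 genes at their lower bound. In shLuc cells it was 5.70 with or without 5 genes at their bound. The acetylcholine receptor subunit Chrng rose at least 753-fold in shSix4 cells and at least 2728-fold in shLuc cells. The myosin light chain Myl1 rose at least 367-fold in shSix4 cells and at least 1992-fold in shLuc cells, and the embryonic myosin heavy chain Myh3 at least 297-fold in shSix4 cells and at least 2343-fold in shLuc cells. Chrna1, another receptor subunit, rose at least 329-fold in shSix4 cells and by 10.75 ± 0.32 on the log2 scale in shLuc cells, where 1 of 3 empty-vector arrays was above background.

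Between shSix4 and shLuc cells with MyoD, 2 of the 37 targets fell and 0 rose, against 0.13% and 0.0488% of all named genes. They were Myh3 (-2.41 ± 0.38, adjusted p = 0.0373) and the glucose transporter Slc2a4 (-1.81 ± 0.24, adjusted p = 0.0339). A slide block called 15 lower and 0 higher, against 1.61% lower and 0.912% higher over all tested probes. The median difference over the 37 was -1.44, beside 0.02 over all named genes, and Myog at -1.16 and Mef2c at -1.56 lay near that median. With empty vector Slc2a4 was the only target called, at least 1.88-fold lower in shSix4 cells, and the interaction called none of the 37.

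Genes whose levels followed each factor most closely over the arrays were ranked among 12140 genes, as a description that the groups and slides drive in part. Myog was most like Chrng (Pearson r = 0.997 over 12 arrays), then Chrna1, Hrc, Myom2 and Myl1, all genes of muscle. Mef2d was most like Chchd4 (r = 0.984), Car2, Prss46, Cdkn1a and Neurl1a. Mef2a, by probe 2, was most like Inppl1 (r = 0.981), Adgrg1, Zbtb18, Neurl1a and Dok3, so Neurl1a appeared for both. Mef2c had its closest match in Pcx, at r = 0.926 the lowest best match of the 5 genes, followed by Rae1, Tgif2, Cyth1 and Slc12a5. Myod1, over the 10 arrays with an unmarked spot, was most like Hivep2 (r = 0.992), Slc44a1, Notch1, Rgs14 and Tmem200a.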

How the data were processed

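The 12 arrays were single-colour Agilent whole-genome mouse arrays hybridised with Cy3-labelled cRNA, and groups were taken from the sample titles. Each deposited scanner file lists the Cy3 intensity of 1 array's spots, unlogged, from Agilent Feature Extraction as the authors ran it (version 11.5.1.1 per the file headers, although the submitters' processing notes name 10.5.1.1). Per the file headers, background correction and detrending were done inside each array. The authors' deposited table of normalized log2 values, with no method stated in the sources used here, served as an alternative, and the copy used here holds 3867 of the 41174 probes, Myod1 and Myog among them.

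Spots of a probe were averaged on the log2 scale, without controls and without spots marked as outliers. Probes were named through RefSeq (GRCm38.p6). Group means over all 12 arrays were fitted with limma 3.58.1 in R 4.3.3, after a test on simulated data. The replicate number was the slide. Arrays sharing a number deviated together in each pair of groups compared here (r 0.233 to 0.804 between deviations from the group means). The numbers were therefore taken to pair the samples. The main fit left this pairing out, and its SEs and p-values include the spread between slides. The slide block, which keeps the pairing, is given where it changed a call or a list's count. Alternatives were normexp on the median signal (the files used here hold no mean signal), quantile normalization, other filters, marked spots kept, 1 probe per gene, the slide block, and leaving out each array and, chosen after seeing the data, each slide. The normexp alternative added an offset of 50 to the signals. For lists, the brightest probe stood for a gene. All member probes are named, and list genes by their change among those called, at most 4 per list and comparison. The members and lists were chosen with earlier results of these data known. The number of arrays limits the precision.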

Additional observations from a re-analysis of the deposited data

How the results depend on the processing

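The direction of every tested probe of these genes in the comparison of MyoD with empty vector was the same under every alternative run, in both lines, and Myog was called under every alternative that tested it. Each other call among the 6 probes ended under at least 1 alternative, and the cause was not tested. For MyoD in shSix4 cells, 531 probes and 2 of the 6 probes described here were called. The alternatives gave 50 and 1 with normexp, 1 of the 6 with quantile normalization, 1 of 6 without the filter, 190 and 0 of 5 with probes above background on all 12 arrays, 1 of 5 with 1 probe per gene, 1219 and 4 with the slide as a replicate block, and 72 and 1 of 2 in the authors' table. For MyoD in shLuc cells, 1044 probes and 6 of 6 were called, against 102 and 1 with normexp, 794 and 4 without the filter (Myod1 at adjusted p = 0.0814 and Mef2c at 0.0996 no longer called), 565 and 4 of 5 with the stricter filter (Mef2c at 0.0511), 4188 with the replicate block and 158 and 1 of 2 in the authors' table. The block also moved the split, from 900 higher and 144 lower calls to 2040 higher and 2148 lower. For shSix4 against shLuc cells with MyoD, 39 probes were called, against 0 with normexp, 3 without the filter, 2 with the stricter filter, 606 with the block (1 of the 6, Mef2c) and 7 in the authors' table. With empty vector 4 were called, against 0 with normexp, 2 with quantile normalization, 0 without the filter, 1 with the stricter filter, 7 with 1 probe per gene, 103 with the block and 2 in the authors' table. The interaction called 0, against 1 with quantile normalization and 1 in the authors' table.

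Leaving out 1 array gave 383 to 521 probes and 1 to 2 of the 6 for MyoD in shSix4 cells, 706 to 1162 probes and 3 to 6 of the 6 in shLuc cells, 0 to 56 probes for the hairpins with MyoD (56 without shSix4 empty-vector replicate 1), 0 to 3 with empty vector and 0 for the interaction. Leaving out slide 1, 2 or 3 with its 4 arrays gave 565, 234 and 165 probes (3, 1 and 1 of the 6) in shSix4 cells, 1112, 440 and 336 (4, 2 and 1) in shLuc cells, 156, 0 and 0 for the hairpins with MyoD and 263, 0 and 0 with empty vector. Fewer samples entered these fits. Leaving out slide 3 left Myog as the only call among the 6 in each line. Signal over background limits Myf5, Myf6 and Mef2b, which were at or near background and not tested. Among the 6 probes the block changed no call other than those given.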
